A study of Caenorhabditis elegans with 2 samples.

Results

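The autosomal intergenic peaks away from promoters were 384 of the 1794 regions that the authors kept after chromatin immunoprecipitation followed by sequencing (ChIP-seq) of the tagged zinc finger protein ZTF-4 in *Caenorhabditis elegans* larvae. A peak was a member when it lay on 1 of the autosomes and its summit was over 500 bp from every protein-coding start site, outside every protein-coding gene body and outside every noncoding exon other than those of piRNAs. No signal value entered that rule directly. The authors kept the peaks by how far region ranks held up between replicates, so signal and agreement entered through their selection. Members made up 21.4% of all peaks and 26.5% of the 1451 autosomal peaks, and another 131 peaks met the same conditions on the X chromosome. The animals were whole L2 larvae of strain OP322, males and females mixed, with genotype unc-119(ed3) III and the integrated transgene wgIs322, which carries ztf-4 fused to eGFP. There was 1 group with 2 biological replicates, so nothing could be compared between conditions, and the listed control was not used here. Whole larvae were assayed, so the values say nothing of the tissue a region was bound in, and binding of a transgenic fusion protein need not equal that of the native one.

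Zinc finger proteins of the C2H2 type contact DNA through short finger modules and are a large class of transcription regulators in animals. In *C. elegans* most mapped regulatory sequence lies close upstream of genes, because genes are packed tightly and intergenic stretches are short. Elements farther away lie between genes, in introns or beside small noncoding RNA genes that have promoters of their own. Many worm messages are trans-spliced, so an annotated start site can be the splice site of a spliced leader, with transcription starting farther upstream.

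The windows below, the summit base with 50 bases on either side read on the plus strand of ce11 from the RefSeq copy of the assembly, belong to 5 of the 7 highest members and are shown because the results on signal turn on them. Of the 25 highest members 14 held at least 1 of the words counted here. Capitals mark any of 6 words of 6 bases on either strand: GAGAGA with its shifted form AGAGAG, and the more GC-rich ACGCAG as well as CGTCTC, then GACGCA and lastly GAGCGC. The word GAGAGA overlaps with AGAGAG in any longer run of the repeat, while GACGCA overlaps with ACGCAG by 5 bases. Of these windows, the one at sls-2.1 held AGAGAG and the others held none of the 6 words.
CC8.2, chrIV:3645092-3645192: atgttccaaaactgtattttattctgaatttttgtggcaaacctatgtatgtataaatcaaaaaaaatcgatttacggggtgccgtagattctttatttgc
sls-2.2 and ins-13, chrII:5543719-5543819: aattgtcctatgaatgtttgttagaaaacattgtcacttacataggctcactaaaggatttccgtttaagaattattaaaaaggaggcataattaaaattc
sls-2.1 and ZK1248.17, chrII:5844776-5844876: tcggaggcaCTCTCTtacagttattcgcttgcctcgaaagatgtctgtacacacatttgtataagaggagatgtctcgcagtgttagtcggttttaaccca
cbp-1, chrIII:9765540-9765640: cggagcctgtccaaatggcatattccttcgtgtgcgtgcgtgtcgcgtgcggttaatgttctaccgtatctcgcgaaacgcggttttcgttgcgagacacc
F44E5.4, chrII:11756967-11757067: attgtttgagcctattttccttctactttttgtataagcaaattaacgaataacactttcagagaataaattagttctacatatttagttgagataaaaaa

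The next windows, read in the same way, are shown because they hold the words that the comparisons below turn on. The window at ikke-1 held ACGCAG together with GACGCA in 1 overlapping run. Those at hif-1 and K12H4.5 held GAGAGA together with AGAGAG, and that at mtm-3 held GAGAGA. The last 2 held the longest runs of alternating G and A among the members for which sequence is shown, 29 and 25 bases inside the window.
ikke-1, chrIII:9051373-9051473: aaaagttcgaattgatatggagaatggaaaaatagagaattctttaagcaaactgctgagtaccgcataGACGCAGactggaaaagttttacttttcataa
hif-1, chrV:20778427-20778527: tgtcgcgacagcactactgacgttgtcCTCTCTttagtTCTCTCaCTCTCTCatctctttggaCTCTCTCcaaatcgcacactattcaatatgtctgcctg
K12H4.5, chrIII:8043923-8044023: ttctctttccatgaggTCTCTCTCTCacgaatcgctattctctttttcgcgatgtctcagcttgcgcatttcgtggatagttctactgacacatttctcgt
mtm-3, chrIII:3801508-3801608: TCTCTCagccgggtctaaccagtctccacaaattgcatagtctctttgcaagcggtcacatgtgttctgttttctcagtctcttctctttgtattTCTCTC
H06I04.6, chrIII:3066018-3066118: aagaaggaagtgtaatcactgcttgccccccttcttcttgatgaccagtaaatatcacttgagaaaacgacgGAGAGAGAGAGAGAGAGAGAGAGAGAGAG
F07H5.7, chrII:8796568-8796668: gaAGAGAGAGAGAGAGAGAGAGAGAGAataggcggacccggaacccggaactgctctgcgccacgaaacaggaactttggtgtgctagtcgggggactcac

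The signal value, the authors' own measure of enrichment with a scaling that no source here states, had a median of 84.3 over the 384 members (95% interval 81.7 to 87.2, from order statistics) and ran from 60.5 to 479. It ranks regions within a list. Values of the 2 replicates are given side by side, but their scales need not be equal, with medians over members of 41.9 in replicate 1 and 47.97 in replicate 2, so no difference in binding between replicates is read from them. Autosomal promoter peaks, whose summits lay within 500 bp of a start site, had a median of 85.8 (82.4 to 88.9), so the interval for members overlapped theirs. Above 200 lay 24 members and above 100 lay 118 (30.7%). Of the 100 highest peaks 21 were members, and of the 20 highest 5 were. The pooled list of 30000 regions from which the peaks were drawn held 7064 autosomal intergenic regions, of which members were 5.44%, close to the 5.98% of all 30000 regions that were kept as peaks. The 5 lowest members, at T04C12.8, tln-1, mpc-2, ckk-1 and coq-1, had signals from 60.5 to 60.98. The lowest of them, at T04C12.8, had 60.5. Of the autosomal intergenic regions that were not kept and overlapped no peak, the highest, at glb-27, had 60.1. Near the distance limit, the members at rps-24, T09F3.2 and K12H4.5 lay 502, 512 and 514 bp from a start site with signals of 95.2, 107 and 265, and the second sls-2.1 member described below lay at 514 bp too. Just outside it lay peaks at unc-60, ZC443.3 and hpo-29, at 496, 492 and 490 bp with signals of 78.9, 94.3 and 79.6.

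The highest member of all lay on chromosome IV (3644800 to 3645448), with its summit 24 bp beyond the 3' end of CC8.2. It had a signal of 479 in the pooled list, 242.7 in replicate 1 and 217 in replicate 2, and ranked 8th among all peaks, 8th in replicate 1 and 11th in replicate 2. Its nearest start site, also that of CC8.2, was 2505 bp away, and 72.3% of its window was soft-masked as repeat sequence.

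Next in order came the genes of spliced leader 2 (SL2) RNAs, the small nuclear RNAs that donate the leader for downstream genes of operons. The member 62 bp from sls-2.2 on chromosome II had a signal of 408, with 193 in replicate 1 and 211 in replicate 2. The member 23 bp from sls-2.4 on chromosome I had 399.2, with 178 and 201, and a second member 68 bp from the other end of the gene had 238. The member 39 bp from sls-2.1 on chromosome II had 383, with 175 and 199.1, and its second member, 53 bp from the gene, had 191. In both replicates the higher member at each of these genes ranked between 11 and 18. The summit windows of the higher members at sls-2.4 and sls-2.1 fell into 1 group of near-identical windows, by the limits on copies given below. Each window had 1 copy elsewhere, in both cases on chromosome II. The copy counted for sls-2.1 was therefore not the sls-2.4 window, which lies on chromosome I. Whether reads from these windows could be told apart was not tested. The 2 members at sls-2.4 overlapped the same region of replicate 1, so their replicate 1 values are 1 measurement. By protein-coding start sites these members would be named after ins-13 (an insulin-like peptide gene), egg-5 and ZK1248.17, at 1095, 594 and 715 bp.

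**Figure D1:**
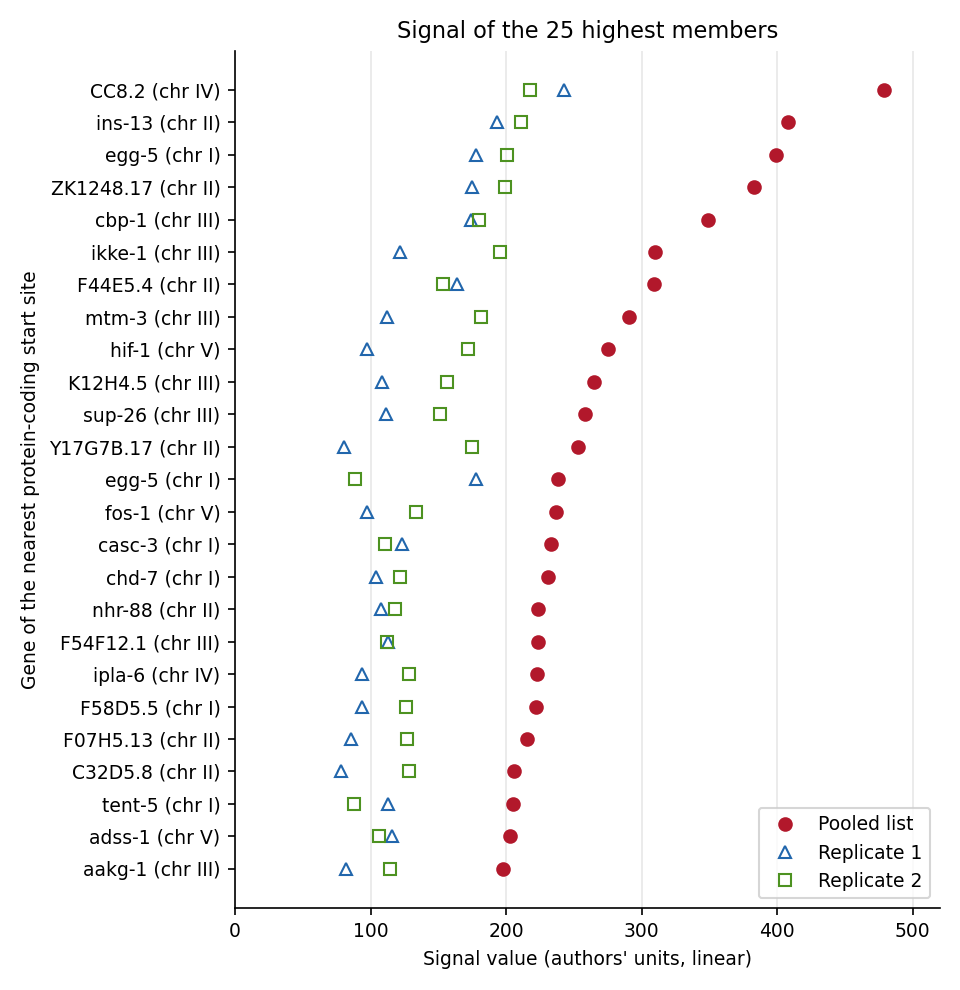
Signal of the 25 highest members (x axis, authors' units, linear) by the gene of the nearest protein-coding start site (y axis, highest at the top), in the pooled list (filled circles), replicate 1 (open triangles) and replicate 2 (open squares). The pooled values run from 479 at CC8.2 to 198 at aakg-1, and replicate 2 lies above replicate 1 for 18 of the 25.

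Several of the other high members had a chromatin or transcription gene as the nearest. Over all members, chromatin and transcription machinery genes were nearest to 1.30%, against 2.01% of promoter peaks. Nuclear hormone receptor genes were nearest to 1.82% against 1.34%, and other transcription factor genes to 2.34% against 2.28%. At cbp-1, which encodes the worm CBP/p300 histone acetyltransferase, the summit lay 919 bp upstream with a signal of 349, against 174 in replicate 1 and 180 in replicate 2. At hif-1, the hypoxia-inducible factor, it lay 1930 bp upstream with 275, with 97.3 in replicate 1 and 172 in replicate 2. The member nearest fos-1, a bZIP factor of the Fos family, lay 3101 bp upstream with 237. It also lay 8 bp from C10F3.15, a gene annotated only as ncRNA. The member nearest chd-7, a chromodomain helicase, lay 887 bp upstream with 231 and 148 bp from the long noncoding RNA gene linc-91. The member nearest nhr-88, a nuclear hormone receptor gene, lay 2549 bp upstream with 224.

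Genes of other functions filled the remaining places. The member nearest ikke-1, a kinase gene related to IKK-epsilon and TBK1, had 310 and also lay 173 bp from the 3' end of R107.5. The member nearest F44E5.4, an Hsp70 family gene, had 309 and lay 90 bp beyond the 3' end of that gene, 2294 bp from its start. The member nearest mtm-3, a myotubularin gene, had 291, and that nearest sup-26, which encodes an RNA-binding protein, had 258. The members nearest K12H4.5 and Y17G7B.17 had 265 and 253, and that nearest casc-3, named for a component of the exon junction complex, had 233. From 223 down to 198 lay the members nearest F54F12.1, ipla-6, F58D5.5, F07H5.13, C32D5.8, tent-5, adss-1 and aakg-1, the last of which encodes a gamma subunit of AMP-activated kinase. The member nearest the adss-1 start lay 111 bp beyond the 3' end of hsp-6, the mitochondrial Hsp70 gene, and the one nearest C32D5.8 lay 131 bp beyond the 3' end of lgg-1, an Atg8 family gene. Each of the 25 highest members was found high in both replicates, with ranks no lower than 197 in replicate 1 and 204 in replicate 2. They were taken by pooled signal from peaks kept for rank agreement between these replicates, so this is partly given.

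Agreement between replicates was measured by overlap with each replicate's own 1794 regions of highest signal. That held in both replicates for 63.4% of all 1794 peaks, which had been kept for rank agreement between these same replicates. Of the 384 members 235 did (61.2%, 95% Wilson interval 56.2 to 65.9%), a share near that background and 4.84 percentage points lower than in promoter peaks, with a Newcombe interval for the difference of -10.8 to 1.04. These intervals, and all others here, count regions only. Regions share 2 libraries and neighbouring ones are not independent, so no interval covers the spread between animals or the counting of reads, and library depth is unknown. Of the other members 50 were in the top of replicate 1 only, 81 in the top of replicate 2 only and 18 in neither (4.69%).

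Signal and agreement went together among the members. Split by pooled signal into 4 groups of 96 members, low to high, 14, 45, 80 and 96 were in the top of both replicates. Members in both tops had a median pooled signal of 99.9, those in replicate 1 only 68.05, those in replicate 2 only 71.6 and those in neither 62.2. Pooled signal is built from both replicates, so this order is partly given. The highest members in neither top were those nearest W06H8.6 (71.3), sup-26 (67.3) and oac-50 (66.6). The one near sup-26 lay 3140 bp from its start, on the same side as the member of 258 described above. Across the 382 members with a region in both lists, the signals of the replicates had a Spearman correlation of 0.473, over regions selected on their pooled signal. The listed value was higher in replicate 2 for 261 members, and the median was higher in replicate 2 in promoter, intron and X intergenic peaks as well. Of the 384, 16 shared their best region of a replicate with another member, and 2, nearest ttr-17 and T28B8.1, overlapped no region of replicate 1.

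**Figure D2:**
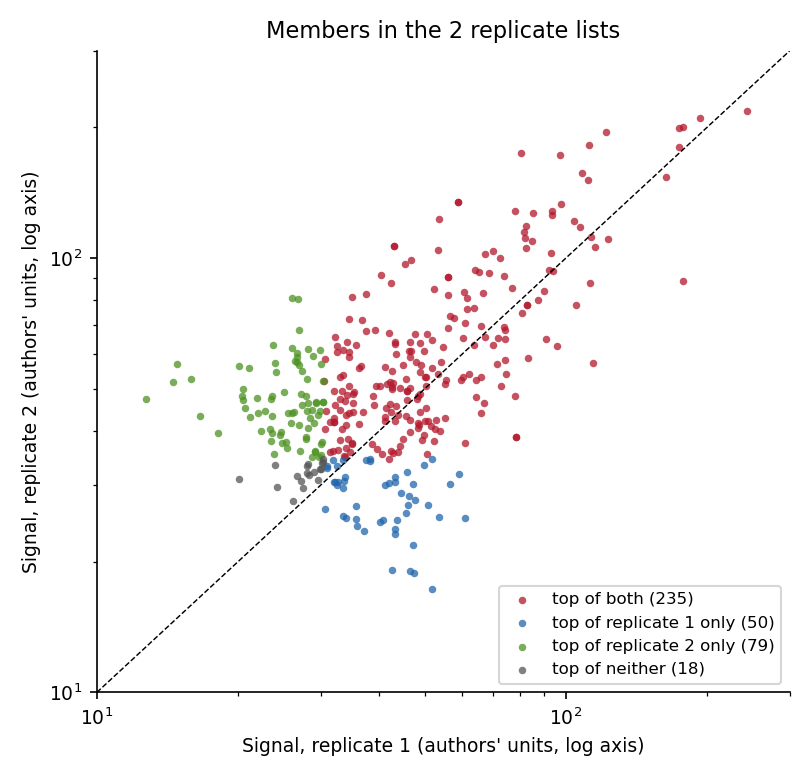
Signal of each member in replicate 1 (x axis) and replicate 2 (y axis), both in the authors' units on log axes, for the 382 members with a region in both lists, coloured by whether that region was among the 1794 highest of each replicate; the dashed line marks equal values. Of these, 261 lie above the line, and the highest point in replicate 1 is CC8.2 at 242.7, with 217 in replicate 2.

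Members were spread over all 5 autosomes, with 78 on chromosome I, 81 on II, 89 on III, 69 on IV and 67 on V. Of the autosomal intergenic regions in the pooled list, members were 6.82% on I, 6.54% on II and 6.99% on III, against 3.66% on IV and 4.396% on V. The median signal ran from 75.8 on V to 85.3 on I, and the highest members were sls-2.4 on I (399.2), sls-2.2 on II (408), cbp-1 on III (349), CC8.2 on IV (479) and hif-1 on V (275). The share in the top of both replicates ran from 57.3% on III to 65.4% on II.

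Distance to the nearest protein-coding start had a median of 1543 bp among members (95% interval 1463 to 1758), with quartiles of 937 and 2534 bp. Within 1000 bp lay 105 members (27.3%), and over 5000 bp away lay 21. The regions ranked directly below the peaks, 416 autosomal intergenic regions at ranks up to 3588 in the pooled list, had a median of 1564 bp (1424 to 1741), and the 131 X intergenic peaks had 2072 bp (1602 to 2546). The 3525 autosomal intergenic regions ranked after 15000 in the pooled list, called low-ranked here, had a median of 2156 bp (2060 to 2225). Regions that overlapped a peak were left out of both lower-ranked sets. The interval between flanking protein-coding genes had a median length of 4405 bp for members (3967 to 4994), 4782 bp for the regions ranked directly below and 6844 bp for the low-ranked regions. The intervals for members and for the regions ranked directly below overlapped (4007 to 5370 bp for those regions). Of the members 76.8% were upstream of the nearest start, against 76.9% of the regions ranked directly below and 64.1% of X intergenic peaks, where the difference was 12.7 points (3.79 to 22.1). In the replicates' own lists that last difference was 5.41 points (-3.37 to 14.9) for replicate 1 and 13.3 points (4.13 to 22.9) for replicate 2.

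Most members lay between genes read in 1 direction. The flanking protein-coding genes were in tandem for 235 members (61.2%), divergent for 111 (28.9%) and convergent for 38 (9.90%). The regions ranked directly below were divided much alike, with 58.4%, 32.7% and 8.89%. X intergenic peaks lay between convergent genes more often, and the members' share minus theirs was -10.7 points (interval of the difference -18.9 to -3.78). That difference was -8.97 points in replicate 1's own list and -13.2 in replicate 2's, and neither interval included 0. A 3' end of a flanking gene lay within 500 bp of 29.2% of members and 22.1% of the regions ranked directly below, a difference of 7.05 points (1.00 to 13.1). It was 7.77 points (1.51 to 13.98) in replicate 1 and 3.84 points (-2.14 to 9.82) in replicate 2.

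**Figure D3:**
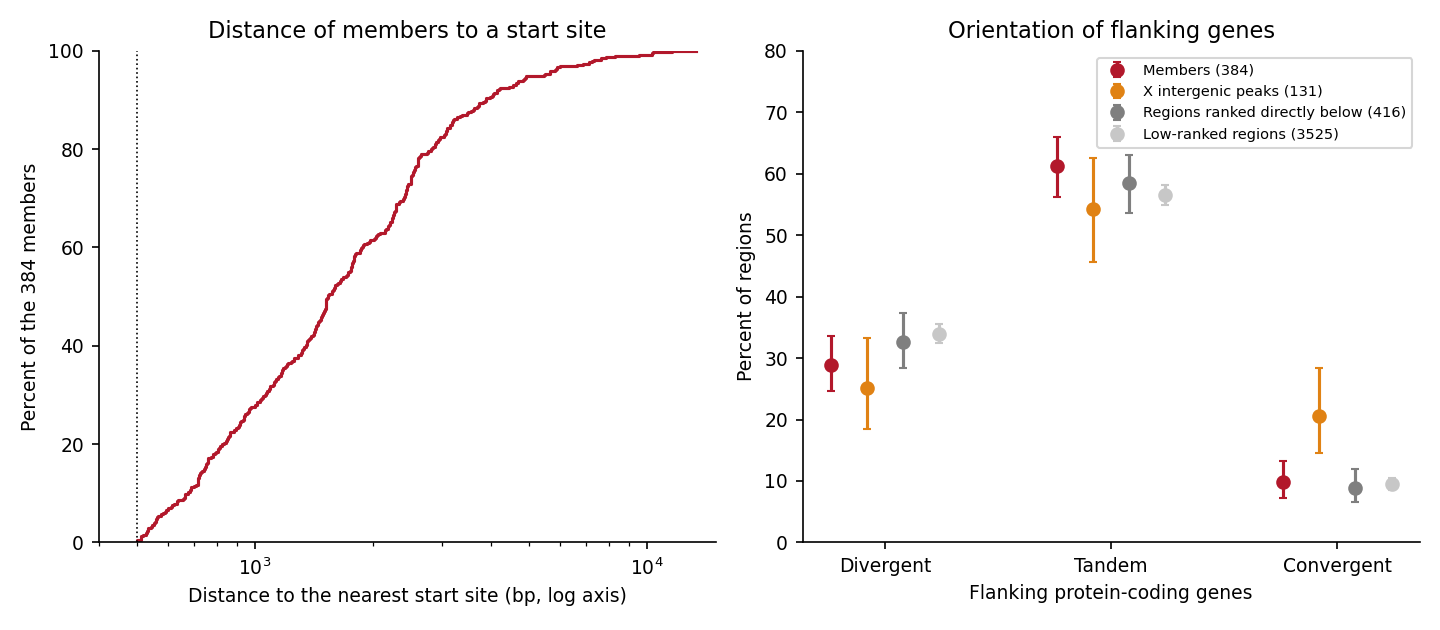
Left, the cumulative percent of the 384 members (y axis) by distance from the summit to the nearest protein-coding start site (x axis, bp, log axis), with the 500 bp limit dotted; the median is 1543 bp. Right, percent of regions (y axis) between divergent, tandem or convergent protein-coding genes, for members and 3 other sets of intergenic regions, with 95% Wilson intervals; members and the regions ranked directly below lie close together and X intergenic peaks are higher only in the convergent class.

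The members farthest from any protein-coding start were at irld-18 (13349 bp, signal 82.6), snt-1 (11568 and 10379 bp, signals 77.5 and 99.1), tol-1 (10306 bp, 65.5) and T23E1.1 (9576 bp, 129.3). Of these, snt-1 encodes synaptotagmin and tol-1 the worm Toll-like receptor. The irld-18 member lay in an interval of 35563 bp between that gene and dmd-6, a gene of the doublesex domain family, and its signal was 27.98 in replicate 1 and 48.2 in replicate 2. The 2 members beyond snt-1 lay on the side of its 3' end, in an interval shared with egl-27.

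Small RNA genes, taken by annotation as tRNA, snoRNA, snRNA, rRNA and miRNA genes, lay within 500 bp of 29 members (7.55%, 5.31 to 10.6%). Whether each has a promoter of its own was not checked. Among the regions ranked directly below, 12 of 416 had one (2.88%), and the difference was 4.67 points (1.60 to 7.99). The replicates' own lists gave 0.663 points (-2.33 to 3.77) for replicate 1 and 2.42 points (-0.868 to 5.85) for replicate 2, so the interval excluded 0 only for the pooled peaks. Promoter peaks had 5.37%, X intergenic peaks 9.16% and intron peaks 15.3%. Promoter and intron peaks could have summits inside noncoding exons, which the rule for members excluded. Shares near noncoding genes other than those of piRNAs were therefore not counted alike in members and in promoter or intron peaks. Small nuclear RNA genes were near 9 members, which lay at 6 genes. Besides the SL2 genes these were F38E11.11, with 2 members of 144 and 72.3, F54D8.7 with 93.1 and T11F9.15 with 63.98. The first 2 again overlapped 1 region in each replicate (42.9 in replicate 1 and 106 in replicate 2). Promoter peaks were near an snRNA gene in 0.403%, against 2.34% of members, a difference of 1.94 points (0.591 to 4.01), but intron peaks had 2.31%, and the members' share minus theirs was 0.029 points (-3.16 to 2.47). The difference from promoter peaks was 0.893 points (-0.215 to 2.64) in replicate 1 and 1.59 points (0.259 to 3.62) in replicate 2.

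Of the other classes, snoRNA genes, whose products guide RNA modification, were near 15 members at 15 genes (3.91%), against 3.36% of promoter peaks and 7.87% of intron peaks. The members' share minus that of intron peaks was -3.96 points (-8.59 to -0.176). Intron peaks, unlike members, could have summits inside snoRNA exons, and the part of that rule in the difference was not tested. The highest were M7.15 (170.1), F59C6.15 (169.96), R166.10 (110) and Y73B6A.15 (100.8). None of the 131 X intergenic peaks was near a snoRNA gene, where the Wilson interval reaches 2.85%. Transfer RNA genes were near 4 members (1.04%), with signals of 94.4, 76.1, 71.6 and 61.1. Promoter peaks had 1.07%, intron peaks 3.70% and the regions ranked directly below 0.481%. X intergenic peaks had 9.16%, so the members' share was lower than theirs, with a difference of -8.12 points (-14.3 to -3.95). The number of tRNA genes on each chromosome was not taken into account. The single miRNA gene was cel-mir-53, 126 bp from a member with a signal of 113. No member was within 500 bp of an rRNA gene, where the Wilson interval reaches 0.990%. Long noncoding and antisense RNA genes were near 7 members (1.82%), against 1.21% of promoter peaks and 2.40% of the regions ranked directly below. The highest were linc-91 (231), linc-151 (108), linc-126 (92.6) and linc-27 (91.7). Pseudogenes were near 11 members (2.86%), against 0.940% of promoter peaks, 1.44% of the regions ranked directly below and 3.06% of the low-ranked regions. The highest were at F07H5.13 (215), tent-5 (205), F44E5.5 (181) and a second at F07H5.13 (106), named here by the nearest protein-coding gene. Genes annotated only as ncRNA were near 49 members (12.8%), against 13.4% of promoter peaks, 19.8% of X intergenic peaks and 23.6% of intron peaks. The highest were those at sls-2.2, sls-2.4, cbp-1 and F44E5.4 given above. Genes of piRNAs were near 14 members (3.65%), against 1.61% of promoter peaks, 4.63% of intron peaks, 5.29% of the regions ranked directly below and 15.6% of the low-ranked regions. The highest of these were nearest ego-1 (174), rga-5 (98.6), C34B4.2 (93.7) and lip-1 (86.4).

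At the summits, a GA repeat word was more frequent in members than in promoter peaks. The word GAGAGA, on either strand within 50 bp of the summit, was in 144 of the 384 members (37.5%, 32.8 to 42.4%), against 21.3% of 745 promoter peaks, a difference of 16.2 points (10.5 to 21.8). The windows at hif-1 and K12H4.5 printed above are examples. Of the 216 intron peaks on the autosomes 35.2% held it, and the members' share minus theirs was 2.31 points, with an interval that included 0 (-5.77 to 10.1). X intergenic peaks held it in 17.6%, lower than members by 19.9 points (11.2 to 27.4), and the regions ranked directly below in 23.6%, lower by 13.9 points (7.57 to 20.2). In the low-ranked regions it was in 6.04%. From the replicates' own lists, the difference from promoter peaks was 10.7 points (5.31 to 16.3) in replicate 1 and 11.7 points (6.16 to 17.4) in replicate 2. That from X intergenic peaks was 11.1 points (2.02 to 18.8) and 15.5 points (6.32 to 23.2), and that from regions ranked directly below 6.47 points (0.247 to 12.7) and 9.11 points (2.68 to 15.5). Each of these intervals excluded 0.

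Long runs were rarer. Runs of alternating G and A of at least 12 bases were in 21 members (5.47%, 3.60 to 8.22%), 0.671% of promoter peaks and 6.02% of intron peaks. Members exceeded promoter peaks by 4.80 points (2.73 to 7.57), and by 2.31 points (0.645 to 4.64) and 3.31 points (1.43 to 5.90) in the replicates' own lists. The longest run, 41 bases, was at a member nearest dyb-1 on chromosome I with a signal of 88.0, and that window had near-identical copies elsewhere. The highest signal among the 21 was 224, at nhr-88, and their median was 88.0, so long runs were not confined to the strongest members. Of the 21, 42.9% had a soft-masked summit, against 20.8% of all members.

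**Figure D4:**
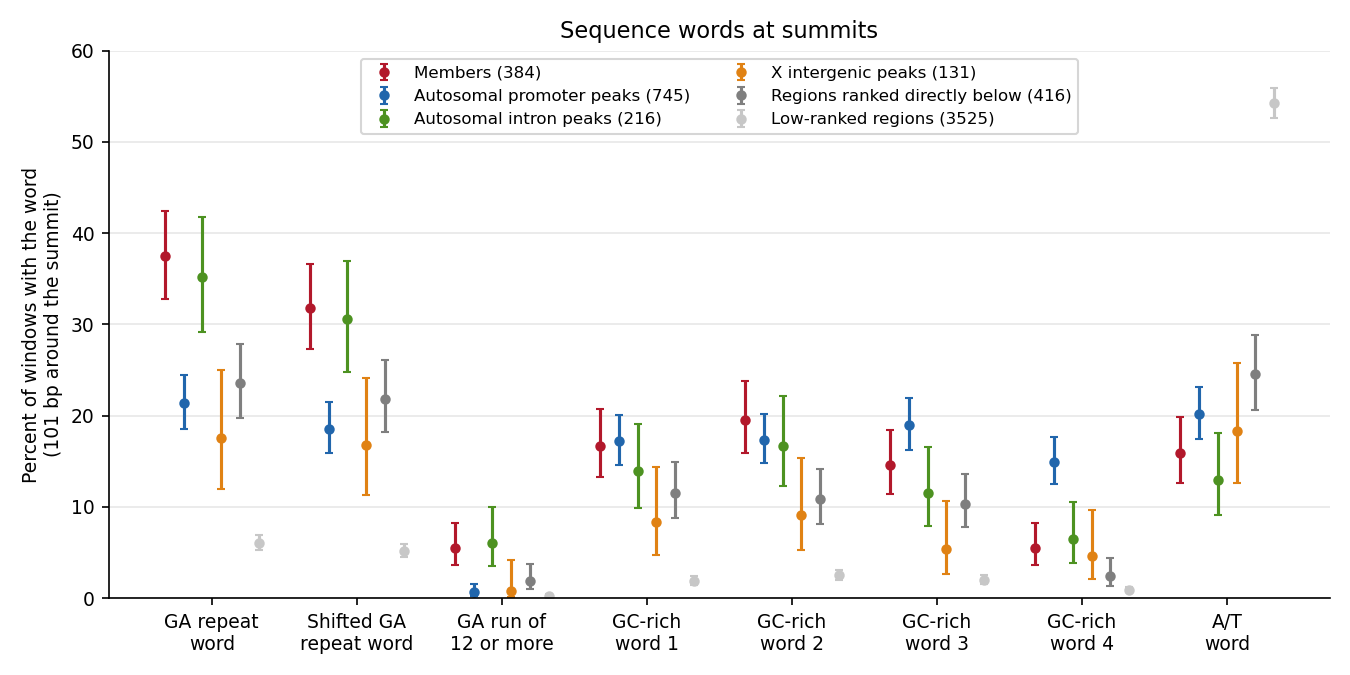
Percent of summit windows (50 bp either side) with each word on either strand (y axis), with 95% Wilson intervals, for members and 5 other sets of regions (number of regions in the legend). The GA repeat word is GAGAGA, the shifted one AGAGAG, GC-rich word 1 is ACGCAG, word 2 is CGTCTC, word 3 is GACGCA and word 4 is GAGCGC, and the A/T word is AAAATT; members and intron peaks lie highest for the GA words (37.5% and 35.2% for GAGAGA) and promoter peaks highest for GC-rich word 4 (14.9%).

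For none of the 4 GC-rich words did the interval of the difference from promoter peaks lie above 0. Members held ACGCAG in 16.7%, CGTCTC in 19.5% and GACGCA in 14.6%, against 17.2%, 17.3% and 18.9% of promoter peaks, and all 3 intervals of the differences included 0. All 3 were more frequent in members than in X intergenic peaks, by 8.27 points (1.36 to 13.7) for ACGCAG, 10.4 points (3.20 to 16.1) for CGTCTC and 9.24 points (3.08 to 13.98) for GACGCA. The replicates' own lists gave intervals above 0 for each of the 3 words. Members also exceeded the regions ranked directly below, by 8.71 points (3.76 to 13.7) for CGTCTC and 5.13 points (0.305 to 10.01) for ACGCAG, while for GACGCA the 4.25 points had an interval that included 0 (-0.334 to 8.90). GAGCGC went the other way against promoter peaks, with 5.47% of members and 14.9% of promoter peaks, a difference of -9.43 points (-12.7 to -5.80). It was -8.70 points in replicate 1 and -9.19 points in replicate 2, both with intervals below 0. Against the regions ranked directly below it was higher in members, by 3.06 points (0.357 to 6.02). The A/T word AAAATT was in 15.9% of members, 20.1% of promoter peaks and 54.2% of the low-ranked regions. Any of the 6 GA or GC-rich words was in 53.6% of members, 54.2% of promoter peaks and 11.8% of the low-ranked regions, so 178 members held none. Median GC content of the window was 44.6% for members, 46.5% for promoter peaks, 37.6% for the regions ranked directly below and 30.7% for the low-ranked regions. Word shares were not adjusted for GC content, and its part in these differences was not tested.

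By chromosome, GAGAGA was in 47.4% of members on chromosome I, 44.9% on III, 36.2% on IV, 30.9% on II and 25.4% on V, with wide intervals (36.7 to 58.4% on I, 16.5 to 36.9% on V). Promoter peaks held it in 24.0% on I, 21.7% on III, 16.7% on IV, 20.3% on II and 23.1% on V, so the shares of members and promoter peaks were closest on V. It was in 44.1% of members between divergent genes (35.3 to 53.4%), 37.4% between tandem genes (31.5 to 43.8%) and 18.4% between convergent genes (9.22 to 33.4%). In the 4 groups by signal, low to high, its share was 34.4%, 35.4%, 42.7% and 37.5%, and each interval overlapped the others. ACGCAG was in 10.4%, 13.5%, 16.7% and 26.0% in the same order. Members near small RNA genes held GAGAGA in 6 of 29. GAGAGA occurred in 11 of the 25 highest members, and 11 of the 25 held none of the 6 words. Members with the word had a median signal of 85.1 and those without it 83.2.

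**Figure D5:**
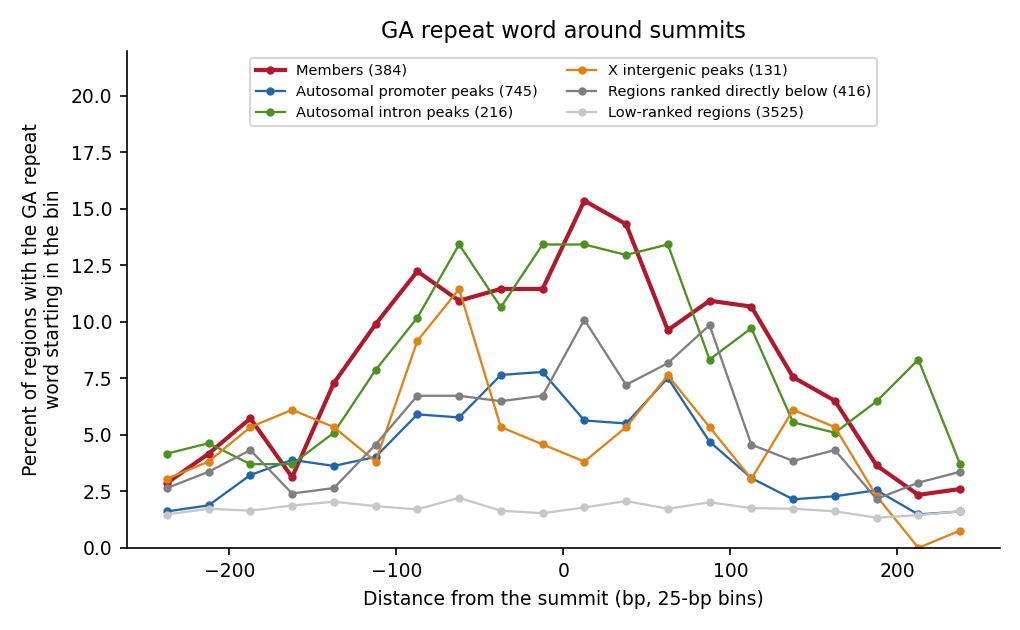
Percent of regions with GAGAGA on either strand starting in each 25-bp bin (y axis) by distance from the summit (x axis, bp) for members and 5 other sets of regions. Members are highest between 0 and 25 bp, at 15.4%, and fall to 2.60% in the last bin, while the low-ranked regions stay between 1.33% and 2.21%.

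The GA word was not placed at 1 point in members. The share of members with GAGAGA starting in a 25-bp bin was 15.4% from 0 to 25 bp right of the summit and 11.5% from 25 to 0 bp left of it. It was still 9.90% from 125 to 100 bp left and 10.7% from 100 to 125 bp right, and 2.86% and 2.60% at the outer bins. In the low-ranked regions it was between 1.33% and 2.21% in every bin.

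The summit base was soft-masked in 20.8% of members (17.1 to 25.2%), 18.4% of promoter peaks, 14.5% of X intergenic peaks and 44.9% of the low-ranked regions. Near-identical copies of the summit window elsewhere in the genome, of at least 80% identity over at least 80 bases, were found for 12 members (3.13%), against 1.61% of promoter peaks, 6.02% of intron peaks, 0 of the 131 X intergenic peaks, 1.92% of the regions ranked directly below and 8.28% of the low-ranked regions. The member nearest egas-1 had 235 copies and a signal of 64.6, that nearest eel-1 had 66 copies and 131, and that nearest rps-24 had 13 copies and 95.2. No source here states how reads with several placements were handled.

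Another peak was often close by. A second peak of any class lay within 5000 bp of 49.5% of members (44.5 to 54.5%), against 40.3% of promoter peaks, 53.7% of intron peaks, 45.04% of X intergenic peaks and 35.6% of the regions ranked directly below. The intervals of the differences from intron and X intergenic peaks included 0. The difference from the regions below was 13.9 points (7.05 to 20.6), and 10.5 points (3.62 to 17.2) and 10.3 points (3.29 to 17.1) in the replicates' own lists. Regions that overlapped a peak had been left out of that set in each list. In the pooled list its smallest gap to a peak was 440 bp, against 199 bp among members. Part of this difference can come from that choice. Within 300 bp of another peak lay 22 members, where 1 wide region may have been listed as 2.

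Several members shared 1 nearest gene. The 384 members had 332 nearest genes, of which 43 had at least 2 members and 6 had at least 3, named here after their values were seen. The gene din-1, which encodes a corepressor that binds the nuclear receptor DAF-12, had 5. They lay 758, 1580, 2298, 2500 and 3981 bp upstream of its start, with signals of 122, 82.4, 181, 95.2 and 74.2, and all 5 were in the top of both replicates. Those at 2298 and 2500 bp overlapped 1 region in each replicate, so their replicate values are 1 measurement. The kinase gene mnk-1 had 4, from 745 to 4029 bp upstream, with signals of 110, 76.5, 185 and 93.5 in order of distance, and again all were in the top of both. The nearer pair, 745 and 962 bp from the start, also overlapped 1 region in each replicate. Genes with 3 members were cpt-1 (a carnitine palmitoyltransferase, up to 175), lpin-1 (lipin, up to 152), rho-1 (the RhoA GTPase, up to 132) and daf-4 (a type II TGF-beta receptor, up to 97.2). GAGAGA was within 50 bp of all 3 summits at rho-1, and none of the 3 at daf-4 was in the top of both replicates. Of the members 60 (15.6%) had a nearest gene that also had a promoter peak, against 11.5% of the regions ranked directly below and 3.97% of the low-ranked regions.

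By lists of gene symbols, 57 members (14.8%) had a nearest gene in any of 22 lists, and 4 lists had no member. These counts are descriptions, and a nearest gene need not be a regulated one. Ribosomal protein genes were nearest to 2 members (0.521%), rps-24 and rps-28, both named after their values were seen, against 30 promoter peaks (4.03%). Nuclear hormone receptor genes were nearest to 7 members (1.82%), 17 of the 416 regions ranked directly below (4.09%) and 10 of the 131 X intergenic peaks (7.63%). After nhr-88 the highest were at nhr-10 (113), nhr-21 (108) and nhr-157 (90.8), each upstream and in the top of both replicates. Chromatin and transcription machinery genes were nearest to 5 members (1.30%), 15 promoter peaks (2.01%), 3 X intergenic peaks (2.29%) and none of the regions ranked directly below. Besides cbp-1 and chd-7 they included bet-1, a bromodomain gene (136), and swsn-7, a SWI/SNF subunit gene (79.99), each upstream.

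The list of other transcription factor genes, which also holds lin-28, was met by 9 members (2.34%), near the 2.28% of promoter peaks and 2.30% of the low-ranked regions. After hif-1 the highest were at ztf-27 (113), at lin-28 (91.5), which encodes an RNA-binding regulator of larval timing and not a DNA-binding factor, and at the Sp family gene sptf-3 (86.96). Genes of Wnt, Notch, TGF-beta and receptor kinase signalling were nearest to 7 members at 4 genes (1.82%), 0.134% of promoter peaks, 0.763% of X intergenic peaks, none of the regions ranked directly below and 0.681% of the low-ranked regions. They included lin-45 (Raf, 100.8), daf-4 with 3 and let-756 (a fibroblast growth factor, 79.2 and 75.003). Of the 7, 2 were in the top of both replicates. The list of channels and synapse genes had 6 members (1.56%), against 0.134% of promoter peaks, 2.29% of X intergenic peaks, 1.92% of the regions ranked directly below and 2.24% of the low-ranked regions. It was led by the 2 at snt-1, unc-104 (76.6), a kinesin gene, and mec-8 (74.9), which encodes an RNA-binding protein. The germline list had 3, of which 2 were the sls-2.4 members counted through egg-5 and the third was at cpg-8 (62.4).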

How the data were processed

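ChIP-seq regions came from 2 biological replicates of 1 group, per the labels. The authors deposited lists of regions on ce11, 1 per replicate and 1 of both pooled with 30000 regions each, and 1 list of 1794 regions kept by a limit on IDR (irreproducible discovery rate), which scores how far region ranks hold up between replicates. By the column order of the narrowPeak format, the lists hold a deposited signal value and a deposited −log10 q-value. The scaling, the caller and aligner with their versions, and the threshold used are stated in no source here. The −log10 values were used for no result, and depth is unknown because the lists carry no read counts.

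Summits were annotated with Ensembl release 115 (WBcel235) and sequence was read from RefSeq's copy of that assembly. Noncoding exons included pseudogene exons, and intron peaks lay in a protein-coding gene body over 500 bp from a start and outside coding-gene exons. Words were counted within 50 bp of the summit on both strands. Copies were sought with blastn 2.17.0. Overlap meant at least 1 bp.

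With 1 group, nothing was tested between samples and no p-value was computed. Shares have 95% Wilson intervals, and differences of shares (members minus the other set) have Newcombe intervals. Those for words, masking, position, nearby noncoding genes and nearby peaks were recomputed from each replicate's own 1794 highest regions. Shares for copies, low-ranked regions, single chromosomes, groups by signal and gene lists were not recomputed in that way. Classification, overlap and word counting were tested on simulated regions. Alternatives were other windows and flanks, overlap rules, numbers of top regions, subsets of peaks and another lower-ranked set. Those added after seeing the data left out members near small RNA genes or with copies, or kept 1 member per nearest gene.

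Members, lists and comparisons were chosen with earlier results of these data known, and 3 symbol lists were corrected after their first matches were seen. Named by rule were the 25 highest members, the highest of each autosome, the 4 highest near each noncoding class and in each list of at least 3 members, the 5 lowest, the 3 highest in the top of neither replicate, the 5 farthest from a start and those in the largest group of near-identical windows. Members named for their number of copies, long GA runs or shared nearest gene were chosen after their values were seen.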

Additional observations from a re-analysis of the deposited data

How the results depend on the processing

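Of 314 values recomputed under alternatives, 258 stayed within the reported interval or 1.5 times the reported count, 56 moved, and 0 of the differences whose interval excluded 0 changed sign. With a start-site window of 250 bp, GAGAGA in members minus X intergenic peaks was 9.78 points, the median distance to a start 1012 bp and the divergent share 34.5%, and with 1000 bp the median distance was 2181 bp. Leaving out a replicate and taking the other's own list, the GAGAGA share ranged from 31.1 to 34.5%, its difference from X intergenic peaks from 11.1 to 15.5 points, its difference from the regions ranked directly below from 6.47 to 9.11 points, and the share near a small RNA gene from 5 to 6.90%. Among the 897 peaks of highest signal there were 202 members, with 91.1% in the top of both replicates and 40.1% with another peak within 5000 bp. Among peaks in the top of both there were 235, with 43.8% so placed. In both settings the other peak was sought only among the peaks retained, so fewer neighbours were available than in the full list. The share in the top of both was 52.1% when overlap had to be reciprocal over 50% of each region, 34.4% with 897 top regions and 92.4% with 3588. GAGAGA was in 51.3% of members within 100 bp and 20.3% within 25 bp, where its difference was 8.37 points from promoter peaks and 6.61 points from the regions below. Within 50 bp and with the low-ranked regions in place of those ranked directly below, the difference was 31.5 points. Another peak lay within 1000 bp of 13.8% and within 10000 bp of 61.7% of members, and within 5000 bp of 42.8% with 1 member per nearest gene, an alternative added after seeing the data. No paired analysis was possible because there was only 1 group. Intervals count regions that share libraries, and depth was not known.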

Other observations

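Low GC content and gene ends went together among the strongest members, a pattern chosen after the values were seen and given as a description. Of the 25 highest members, 8 had under 35% GC in the summit window, and 7 of those 8 lay within 200 bp of the 3' end of a flanking protein-coding gene, against 1 of the other 17. They include those at CC8.2, F44E5.4, hsp-6 and lgg-1 described above. Over all members, 31 of 77 with low GC were that close to a 3' end (40.3%), against 33 of the other 307 (10.7%). In replicate 1's own list the shares were 32.8% and 8.71%, and in replicate 2's 30.2% and 11.8%. X intergenic peaks had 37.04% and 7.69%, while the regions ranked directly below had 13.8% and 10.04%. The low-ranked regions had 8.80% and 6.31%. Promoter peaks had 32.6% and 22.2%, but their summits can lie inside genes, where the distance to a 3' end was negative. Their shares are therefore not the same measure and are not compared with those of members. Low-GC members held GAGAGA in 11.7%, the other members in 44.0%, and 37.7% of low-GC members had a soft-masked summit. The part of repeat sequence in this pattern was not tested.

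All 2080 words of 6 bases, counted on both strands, were also ranked by their share in members minus their share in promoter peaks, with no test. The highest was AAGAGA at 34.4% of members against 16.9% of promoter peaks. The lowest was GCGCAC at 3.65% against 15.03%, followed by ACGCGC at 2.08% against 13.02%. Against X intergenic peaks the lowest was CAATAA, at 4.69% of members and 14.5% of those peaks.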
